A study of Mus musculus with 21 samples.

Results

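Lmna, the B-type lamin genes Lmnb1 and Lmnb2, and Lbr encode proteins of the nuclear envelope, and they were followed here through their 3′ ends in hearts of mice with and without a cardiomyocyte deletion of Lmna. The members are the 3′ UTR intervals of the deposited table that lie on the gene's strand inside 4 windows of the mouse genome mm39, 1 window for each of the 4 genes. Of the 12 intervals in the windows, 3 overlapped a more read one and were removed, which left 9 of the 121259 non-overlapping intervals of the whole table. Lmna has 2 of them, Lmnb1 has 5, and Lmnb2 and Lbr have 1 each.

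The method, SLAM-IT-seq, labels newly made RNA with a uracil analogue where a transgene supplies uracil phosphoribosyltransferase (Uprt), and alkylation then makes the analogue read as a T>C conversion. RNA of the left ventricular wall of 21 mice was sequenced, 1 library per mouse. The non-overlapping intervals of the whole table held 25975911 to 51007428 reads per library, of which 1125790 to 2421214 carried a conversion. All mice carried the Myh6MCM transgene (Tg/0), a tamoxifen-inducible Cre, received tamoxifen at 6 to 8 weeks of age on 4 days, and were given 4-thiouracil 2 weeks later, 6 hours before the heart was taken. The groups were Lmna F/F with Uprt Tg/0 (6 mice, 4 females and 2 males), Lmna +/+ with Uprt Tg/0 (8 mice, 4 females and 4 males), Lmna F/F without Uprt (4 mice, 2 females and 2 males) and Lmna +/+ without Uprt (3 mice, all males). F is the usual sign for a floxed allele, which Cre cuts out. The Myh6 promoter drives Cre in cardiomyocytes, so fibroblasts, endothelial cells and other cells of the ventricle keep Lmna in F/F hearts. Which part of Lmna is deleted is not given in the sources used here. A 3′ tag outside the deleted part does not check the deletion.

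Lamins are intermediate filament proteins that form a meshwork under the inner nuclear membrane. Lmna makes lamin A and lamin C, which share most of their sequence and differ in their 3′ ends, with the lamin C transcript ending further upstream in the gene. Lmnb1 and Lmnb2 make the B-type lamins, which stay anchored to the membrane by a lipid group, and Lbr makes the lamin B receptor, a protein of the inner nuclear membrane that tethers heterochromatin and also has sterol reductase activity.

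Lmna, on the minus strand of chromosome 3, was read at a pair of separate ends. The upstream end is the 92-base interval chr3:88390512-88390603 (transcript ENSMUST00000120377.8), with 22866 reads over the 21 libraries, the most of any member. The downstream end is the 926-base interval chr3:88388455-88389380 (ENSMUST00000029699.13), with 20689 reads. The files name transcripts but not isoforms, so the ends are called here by their position. Lmnb1 was read mainly at chr18:56885721-56886496 on the plus strand (776 bases, ENSMUST00000025486.9, 3465 reads), its last 3′ UTR interval. The other 4 Lmnb1 intervals belong to another transcript inside the gene and held 44, 395, 1 and 0 reads. Lmnb2 was read at chr10:80737037-80738692 on the minus strand (1656 bases, ENSMUST00000057623.14, 2326 reads). Lbr was read at chr1:181642900-181644422 on the minus strand (1523 bases, ENSMUST00000005003.12, 15630 reads). At most 28 reads of any member mapped to more than 1 place. The reads are tags of 3′ ends, and levels are compared between mice and not between genes. They are given as CPM, a library's counts per 1e+06 reads after scaling by TMM (the trimmed mean of M values). The files do not pair other intervals with gene names, so markers of cardiomyocytes and other heart cells and other nuclear envelope genes were not analysed here. In ventricle tissue, fewer cells of a type and less RNA per cell cannot be told apart.

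The first comparison asked how each end of Lmna differed between Lmna F/F and +/+ hearts. The upstream end was lower in every Lmna F/F mouse than in every +/+ mouse, with and without Uprt. The downstream end overlapped between the genotypes in both settings and was not called.

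With Uprt, the upstream end had 9.86 CPM in the lowest Lmna F/F mouse, a median of 16.6 and 22.8 in the highest, against a lowest value of 29.4 CPM, a median of 42.3 and a highest of 50.1 in Lmna +/+ mice. Without Uprt it had 27.5, 19.1, 7.44 and 13.7 CPM in the 4 Lmna F/F mice, against 41.0, 45.2 and 39.3 CPM in the 3 Lmna +/+ mice. The genotypes did not overlap in either setting, and the Lmna F/F mice without Uprt were the more widely spread. The means with Uprt were 16.0 ± 4.44 CPM in Lmna F/F (SD, n = 6) and 40.9 ± 7.37 CPM in Lmna +/+ (SD, n = 8). On the log2 scale the fold change was -1.28 ± 0.17 (SE; adjusted p = 4.81e-05 by edgeR's quasi-likelihood test), that is 2.43-fold lower in Lmna F/F. Without Uprt the means were 17.0 ± 8.51 CPM in Lmna F/F (SD, n = 4) and 41.8 ± 3.08 CPM in Lmna +/+ (SD, n = 3), and the fold change was -1.08 ± 0.24 on the log2 scale (SE; adjusted p = 0.00862 by edgeR). That call was lost when the 7 mice without Uprt were fitted alone (-1.03, edgeR adjusted p = 0.274). It held when any single library was left out.

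The downstream end behaved otherwise. With Uprt it had 16.6 CPM in the lowest Lmna F/F mouse, a median of 22.9 and 26.5 in the highest, against 21.7, 25.8 and 37.3 CPM for the lowest, median and highest Lmna +/+ mouse. In mice without Uprt it had 36.8, 26.5, 13.7 and 17.5 CPM in Lmna F/F mice, against 30.5, 27.8 and 27.1 CPM in Lmna +/+ mice. The ranges overlapped in both settings, and without Uprt the highest and the lowest mouse were both Lmna F/F. The log2 fold changes were -0.28 ± 0.16 with Uprt (SE, edgeR adjusted p = 0.464, 95% normal interval -0.59 to 0.04) and -0.17 ± 0.23 without (SE, edgeR adjusted p = 0.804, interval -0.63 to 0.29). Neither call changed with the alternatives run, although without Uprt the estimate was 0.01 when libraries were scaled by size alone and 0.01 without Lmna F/F no Uprt replicate 4.

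**Figure D1:**
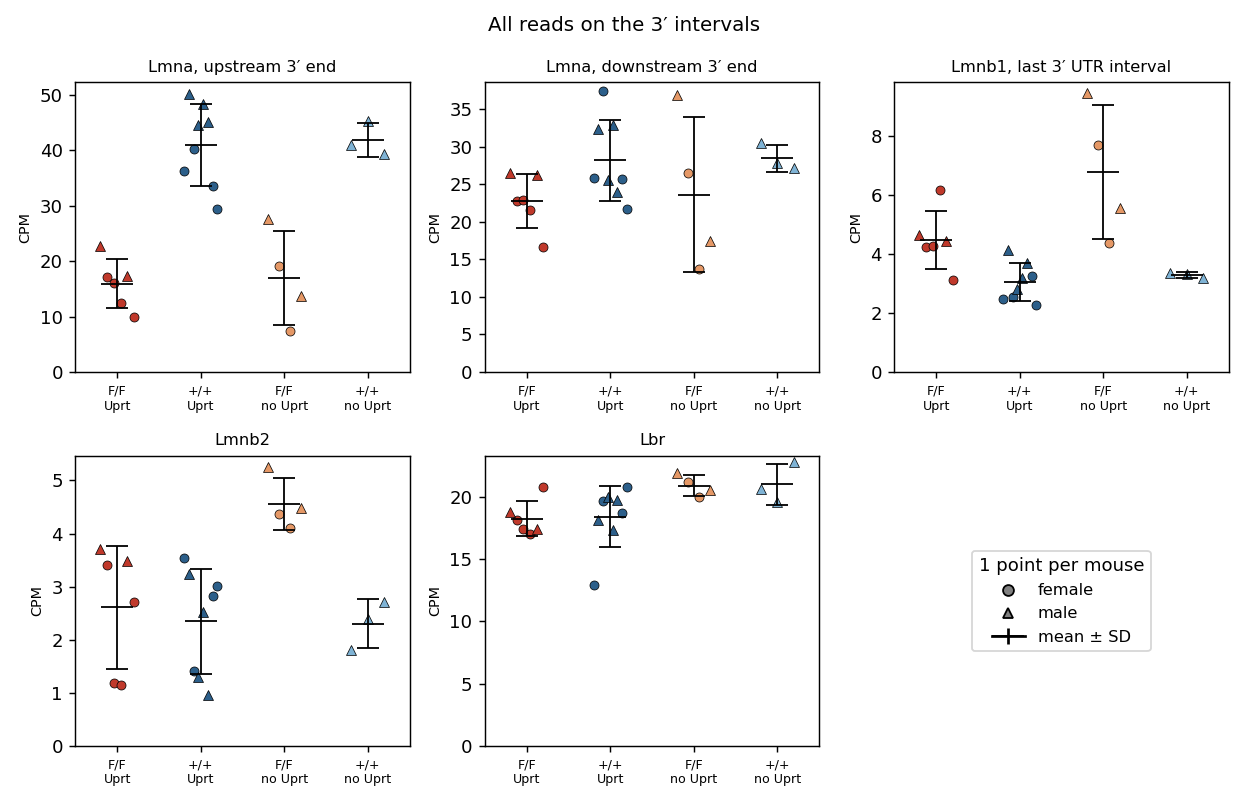
All reads on the best read interval of each gene, and on both ends of Lmna, in CPM by group (each point is 1 mouse, circles are females, triangles are males, bars are the mean ± SD). Every Lmna F/F mouse lies below every +/+ mouse at the upstream end of Lmna, while the groups overlap at the downstream end and at Lbr.

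The balance between the ends of Lmna differed between the genotypes. It is computed from the same reads as the levels above, so it restates them and is not a separate result. The share of a mouse's Lmna reads that lay on the downstream end was 53.8% in the lowest Lmna F/F mouse with Uprt, 59.5% at the median and 63.3% in the highest, against 34.7%, 41.1% and 48.2% in Lmna +/+ mice with Uprt. Without Uprt it was 57.2%, 58.1%, 64.7% and 56.0% in Lmna F/F mice, against 42.7%, 38.0% and 40.8% in Lmna +/+ mice. No Lmna F/F mouse had a share as low as any +/+ mouse. The means with Uprt were 59.3% ± 3.59 in Lmna F/F (SD, n = 6) and 40.8% ± 4.20 in Lmna +/+ (SD, n = 8), a difference of 18.5 percentage points. The two-sided exact permutation test of 6 against 8 mice gave its smallest possible p, 0.000666 (adjusted p = 0.00133 over the settings with and without Uprt). Without Uprt the means were 59.0% ± 3.91 in Lmna F/F (SD, n = 4) and 40.5% ± 2.34 in Lmna +/+ (SD, n = 3), a difference of 18.5 points. The exact permutation test of 4 against 3 mice again gave its smallest possible p, 0.0571.

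The reads of both ends together were fewer in Lmna F/F hearts. With Uprt the summed level was 26.5 CPM in the lowest Lmna F/F mouse, 39.5 at the median and 49.2 in the highest, against 51.1, 69.6 and 82.5 CPM in Lmna +/+ mice. Without Uprt it was 64.3, 45.6, 21.1 and 31.2 CPM in Lmna F/F mice, against 71.5, 73.0 and 66.3 CPM in Lmna +/+ mice. The genotypes did not overlap in either setting, although the highest Lmna F/F mouse without Uprt came within a few CPM of the lowest +/+ mouse. The difference was -30.3 CPM with Uprt (two-sided exact permutation p = 0.000666, n = 6 and 8, the smallest possible) and -29.7 CPM without (exact permutation p = 0.0571, n = 4 and 3, the smallest possible). This sum, taken from the same reads as the levels of each end, was added after the values were seen.

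Across mice with Uprt the CPM of both ends correlated in Lmna F/F (Pearson r = 0.895, n = 6, exact permutation adjusted p = 0.0111). In Lmna +/+ the correlation did not pass the threshold (r = 0.515, n = 8, exact permutation adjusted p = 0.188). Without the 2 mice farthest from the median downstream level, r was 0.697 (n = 4) and 0.703 (n = 6). With Uprt the sexes did not overlap at the upstream end in both genotypes, so r includes that difference. No sex within a genotype held 6 mice, and r was not tested within a sex.

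**Figure D2:**
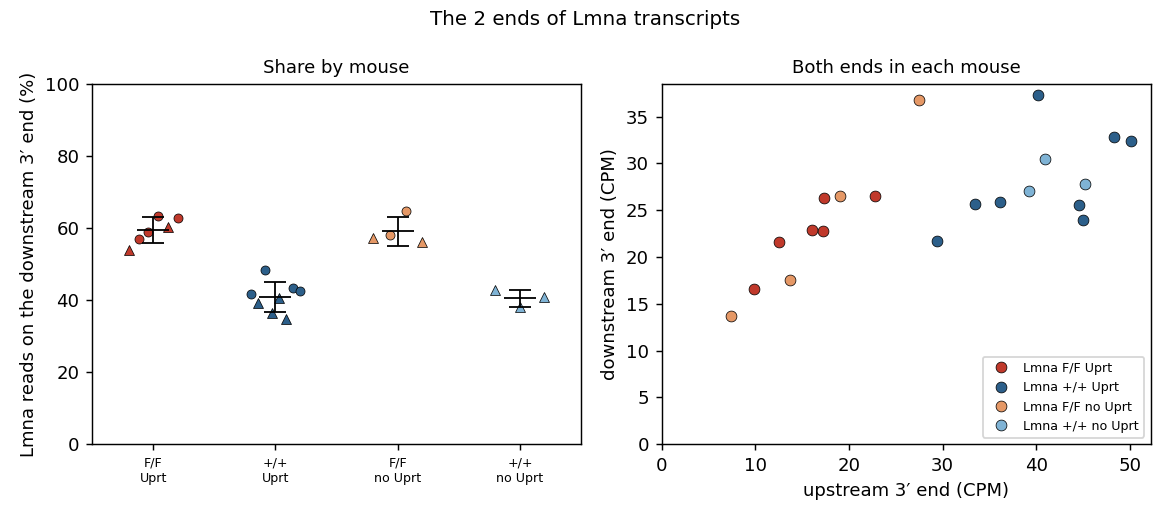
Left, the percentage of a mouse's Lmna reads on the downstream end by group (1 point per mouse, circles females, triangles males, bars mean ± SD). Right, the level of both ends in each mouse in CPM. Lmna F/F mice have 53.8% to 64.7% of their Lmna reads on the downstream end and +/+ mice 34.7% to 48.2%.

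Lmnb1 was the B-type lamin gene with a called change. Its last 3′ UTR interval was higher in Lmna F/F hearts without Uprt, and with Uprt it leaned the same way without passing the threshold. Without Uprt it had 9.45, 7.69, 4.35 and 5.56 CPM in the 4 Lmna F/F mice, against 3.35, 3.33 and 3.17 CPM in the 3 Lmna +/+ mice. The groups did not overlap, and replicates 1 and 2 of Lmna F/F stood highest. The means were 6.76 ± 2.26 CPM in Lmna F/F (SD, n = 4) and 3.28 ± 0.100 CPM in Lmna +/+ (SD, n = 3). It was 2.24-fold higher in Lmna F/F, a log2 difference of 1.16 ± 0.26 (SE; adjusted p = 0.00874 by edgeR). The call was lost without Lmna F/F no Uprt replicate 1 (0.96, edgeR adjusted p = 0.0873) and in the 7 libraries alone (1.18, edgeR adjusted p = 0.127).

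With Uprt, the same Lmnb1 interval had a lowest value of 3.13 CPM, a median of 4.34 and a highest of 6.16 in Lmna F/F mice, against 2.26, 2.99 and 4.13 CPM in Lmna +/+ mice. Only the lowest Lmna F/F mouse reached into the +/+ range. Its log2 fold change came to 0.62 ± 0.18 (SE; adjusted p = 0.0620 by edgeR, 95% interval 0.27 to 0.97). It passed the threshold with DESeq2 (0.61, adjusted p = 0.0366), with library size in place of TMM (0.76, edgeR adjusted p = 0.0195) and without 1 of 4 single libraries (0.63 to 0.69, edgeR adjusted p = 0.0406 to 0.0482). Those libraries were Lmna F/F Uprt replicate 6, Lmna +/+ Uprt replicate 2 and Lmna F/F no Uprt replicates 2 and 4. Over all 31 alternatives the estimate spanned 0.39 to 0.76 (adjusted p = 0.0195 to 0.722, by edgeR or DESeq2). Library size alone also moved the median of all intervals tested to 0.17. The effect with Uprt minus that without was -0.55 ± 0.31 (SE, edgeR adjusted p = 0.747).

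The best read internal Lmnb1 interval, chr18:56862359-56862484, had 0 to 61 reads per library. Its log2 fold changes were 0.96 ± 0.53 with Uprt (SE, edgeR adjusted p = 0.443) and 1.11 ± 0.77 without (SE, edgeR adjusted p = 0.518), neither called. The 3 remaining internal intervals did not pass the filter on low counts.

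Lmnb2, the other B-type lamin gene, was not called in either setting. With Uprt it ranged from 1.14 to 3.71 CPM in Lmna F/F mice (median 3.06) and from 0.962 to 3.53 CPM in Lmna +/+ mice (median 2.67). Without Uprt the 4 Lmna F/F mice had 5.25, 4.38, 4.11 and 4.49 CPM, against 1.80, 2.39 and 2.72 CPM in the 3 Lmna +/+ mice. The groups with Uprt overlapped almost fully, those without Uprt did not overlap, and the Lmna F/F mice without Uprt lay above all other mice. The log2 fold change was 0.15 ± 0.29 with Uprt (SE, edgeR adjusted p = 0.891, 95% interval -0.42 to 0.71) and 1.03 ± 0.42 without (SE, edgeR adjusted p = 0.181, interval 0.20 to 1.87). In males alone the value with Uprt was 0.83 ± 0.38 (SE, edgeR adjusted p = 0.508). The 2 Lmna F/F males with Uprt averaged 3.60 ± 0.154 CPM and the 4 Lmna +/+ males 2.00 ± 1.06 CPM, without overlap, while the 4 Lmna F/F females averaged 2.11 ± 1.13 CPM and the 4 Lmna +/+ females 2.69 ± 0.910 CPM (SD). Whether the sexes differ in this was not tested. The effect with Uprt minus that without came to -0.89 ± 0.51 (SE, edgeR adjusted p = 0.755).

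Lbr, the lamin B receptor gene, was not called in either setting. With Uprt it had 17.0 CPM in the lowest Lmna F/F mouse, a median of 17.8 and 20.8 in the highest, against 12.9, 19.2 and 20.8 CPM in Lmna +/+ mice. In mice lacking Uprt it had 21.9, 21.2, 20.0 and 20.6 CPM in Lmna F/F mice, against 20.6, 19.6 and 22.8 CPM in Lmna +/+ mice. The groups overlapped in both settings. Log2 fold changes were -0.01 ± 0.10 with Uprt (SE, edgeR adjusted p = 0.988, 95% interval -0.21 to 0.20) and 0.01 ± 0.15 without (SE, edgeR adjusted p = 0.990, interval -0.29 to 0.31). These were the narrowest intervals among the 6 tested members.

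In all, 6 of the 9 members passed the filter on low counts and were tested among 31327 intervals, at an adjusted p of 0.05. With Uprt, 1 of the 6 was called lower and 0 higher, where 0.265% of all intervals tested were lower and 2.19% higher. The 0 higher includes the last Lmnb1 interval, which had an unadjusted edgeR p of 0.00174. Without Uprt, 1 of the 6 was lower and 1 higher, where 1.72% of all intervals were lower and 3.46% higher. The median log2 fold change over the 6 was 0.07 with Uprt and 0.52 without, against 0.01 and 0.03 over all intervals. Both comparisons use separate mice but come from 1 fit. None of the 6 was called in the test of the effect with Uprt minus that without, in which edgeR called 0% of 31327 intervals, DESeq2 called 8 intervals, and 2204 had an unadjusted edgeR p under 0.05. Among the 6, none had an unadjusted p under 0.05 there.

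**Figure D3:**
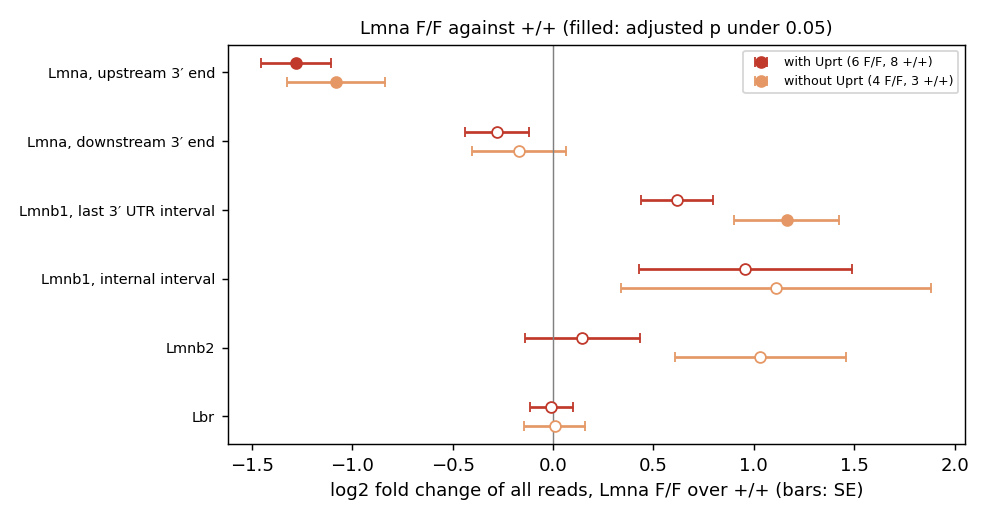
Log2 fold change of all reads, Lmna F/F over +/+, for the 6 tested intervals with Uprt (6 and 8 mice) and without (4 and 3 mice). Points are estimates of the edgeR fit, bars are SE, and filled points have an adjusted p under 0.05. The upstream end of Lmna is filled in both settings and the last Lmnb1 interval without Uprt.

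Sex was a term of the fit, and its estimate at Lmna was looked at after the values were seen. At the upstream end males lay above females in both groups with Uprt. In Lmna F/F the 2 males had 22.8 and 17.3 CPM against 9.86 to 17.2 CPM in the 4 females. In Lmna +/+ the 4 males had 44.6 to 50.1 CPM against 29.4 to 40.1 CPM in the 4 females. The sexes overlapped in Lmna F/F without Uprt, with 27.5 and 13.7 CPM in males and 19.1 and 7.44 CPM in females. Lmna +/+ without Uprt held no females. The log2 fold change of males over females over all groups was 0.51 ± 0.15 (SE, edgeR adjusted p = 0.176, unadjusted p = 0.00178), not called over the 31327 intervals, of which 0.23% were called for sex. It passed the threshold without the filter on low counts (0.50, edgeR adjusted p = 0.00243) and without Lmna F/F no Uprt replicate 2 (0.62, edgeR adjusted p = 0.0349). None of the other 5 tested members was called for sex (edgeR adjusted p = 0.654 to 0.971). The downstream share was 34.7% to 40.5% in Lmna +/+ males with Uprt and 41.7% to 48.2% in the females, which did not overlap. In Lmna F/F with Uprt it was 53.8% and 60.2% in males and 57.0% to 63.3% in females, which did. The genotype difference in the share was as large within males alone, 19.3 points with Uprt (exact permutation p = 0.133, n = 2 and 4, the smallest possible). Females with Uprt averaged 60.5% ± 3.05 in Lmna F/F and 44.0% ± 2.92 in Lmna +/+ (SD, n = 4 each), a smaller difference than in males. Without Uprt the Lmna +/+ mice were all males and 2 of the 4 Lmna F/F mice were females, so the differences in share and summed level given above for those mice set both sexes against males. Among males without Uprt the share differed by 16.1 points and the summed level by -22.5 CPM (each with exact permutation p = 0.200, n = 2 and 3, the smallest possible).

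The next question was whether these genes took up label, which was read from the share of an interval's reads with a T>C conversion. Mice without Uprt give the background of that share. Lbr and the downstream end of Lmna had a higher share with Uprt, and Lmnb1 and Lmnb2 were not called. The upstream end of Lmna was not called over all 21 libraries but was called without any 1 of 3 single libraries.

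At Lbr the share was 3.35% in the lowest Lmna F/F mouse with Uprt, 5.12% at the median and 6.81% in the highest, and in Lmna +/+ mice with Uprt it was 3.87%, 7.09% and 8.04%. Without Uprt it was 3.15%, 2.75%, 2.31% and 3.78% in Lmna F/F mice and 1.85%, 1.03% and 2.54% in Lmna +/+ mice. The mice with and without Uprt did not overlap in Lmna +/+ and overlapped in Lmna F/F. Over both genotypes the log2 odds ratio for Uprt over none was 1.29 ± 0.26 (SE; adjusted p = 0.000273 by edgeR). Pooled over mice, 5.88% of 9471 reads carried a conversion with Uprt (95% exact binomial interval 5.42% to 6.37%) and 2.55% of 6159 without (2.17% to 2.97%). Such intervals cover counting error only, since reads without molecular identifiers are not independent molecules.

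At the downstream end of Lmna the share was 1.44% in the lowest Lmna F/F mouse with Uprt, 2.36% at the median and 3.46% in the highest, and 2.10%, 3.88% and 7.44% in Lmna +/+ mice with Uprt. Without Uprt it was 1.48%, 2.96%, 0.890% and 1.80% in Lmna F/F mice and 1.52%, 1.18% and 2.05% in Lmna +/+ mice. In Lmna +/+ every mouse with Uprt lay above every mouse without it, while in Lmna F/F the groups overlapped. The log2 odds ratio, Uprt against none, was 0.81 ± 0.30 (SE, edgeR adjusted p = 0.0255). The call was lost in males alone (0.81, edgeR adjusted p = 0.123), without the filter on low counts (0.81, edgeR adjusted p = 0.0805) and without any 1 of 5 single libraries (0.63 to 0.79, edgeR adjusted p = 0.0505 to 0.0807). Those were Lmna F/F Uprt replicate 5, Lmna +/+ Uprt replicate 2, Lmna F/F no Uprt replicate 3 and Lmna +/+ no Uprt replicates 1 and 2.

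The upstream end of Lmna carried few conversions. With Uprt the share was 0% to 3.85% in Lmna F/F mice (median 1.30%) and 1.37% to 2.89% in Lmna +/+ mice (median 1.77%). Without Uprt it was 0.690%, 2.52%, 0.654% and 0.458% in Lmna F/F mice and 0.665%, 0.167% and 1.85% in Lmna +/+ mice. The groups with and without Uprt overlapped in both genotypes. Lmna F/F Uprt replicate 6 had 0 T>C reads of 450, which allows a share of up to 0.667% if the limit is taken as 3 reads, or 0.816% as the upper end of the exact 95% binomial interval. The log2 odds ratio was 0.81 ± 0.46 (SE, edgeR adjusted p = 0.142). With 1 library left out it spanned 0.48 to 1.29 (edgeR adjusted p = 0.0278 to 0.383). It was called without Lmna F/F Uprt replicate 6 (0.92, edgeR adjusted p = 0.0488), Lmna F/F no Uprt replicate 2 (1.20, edgeR adjusted p = 0.0497) or Lmna +/+ no Uprt replicate 3 (1.29, edgeR adjusted p = 0.0278). The interval is short, with 20 T positions against 245 at the downstream end, and a read covered 10.7 of them on average against 18.2 there. The 278 T>C reads of mice with Uprt held 193 conversions on the interval's own T positions, so some of these reads had their conversion outside it.

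Lmnb1 and Lmnb2 had higher but uneven shares. The last Lmnb1 interval had 5.70% to 21.2% T>C reads in Lmna F/F mice with Uprt (median 9.64%) and 1.55% to 20.2% in Lmna +/+ mice with Uprt (median 9.30%). In the absence of Uprt it had 1.26%, 0.329%, 5.59% and 9.81% in Lmna F/F mice and 5.69%, 4.55% and 11.5% in Lmna +/+ mice. Its log2 odds ratio was 1.00 ± 0.65 (SE, edgeR adjusted p = 0.196, 95% interval -0.27 to 2.26). Lmnb2 had 0% to 11.3% in Lmna F/F mice with Uprt (median 8.50%) and 0% to 30.7% in Lmna +/+ mice with Uprt (median 6.03%). Without Uprt it had 1.81%, 2.31%, 15.4% and 1.40% in Lmna F/F mice and 0%, 13.7% and 1.57% in Lmna +/+ mice. Its log2 odds ratio was 0.61 ± 0.96 (SE, edgeR adjusted p = 0.619, 95% interval -1.28 to 2.49). With 1 library left out, the value at the last Lmnb1 interval spanned 0.52 (without Lmna F/F no Uprt replicate 2) to 1.31 (without Lmna F/F no Uprt replicate 4). At Lmnb2 it spanned 0.07 (without Lmna +/+ Uprt replicate 2) to 1.51 (without Lmna +/+ no Uprt replicate 2), and neither gene was called in any of these fits. All groups overlapped at both genes. With 70 to 398 reads per library at Lmnb1 and 23 to 221 at Lmnb2, these shares rest on 0 to 33 T>C reads each.

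Among the 5 members with enough T>C reads to be tested for labelling, 2 were called higher with Uprt, where 55.7% of the 13574 intervals tested were. The median log2 odds ratio was 0.81 over the 5 and 1.18 over all intervals.

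**Figure D4:**
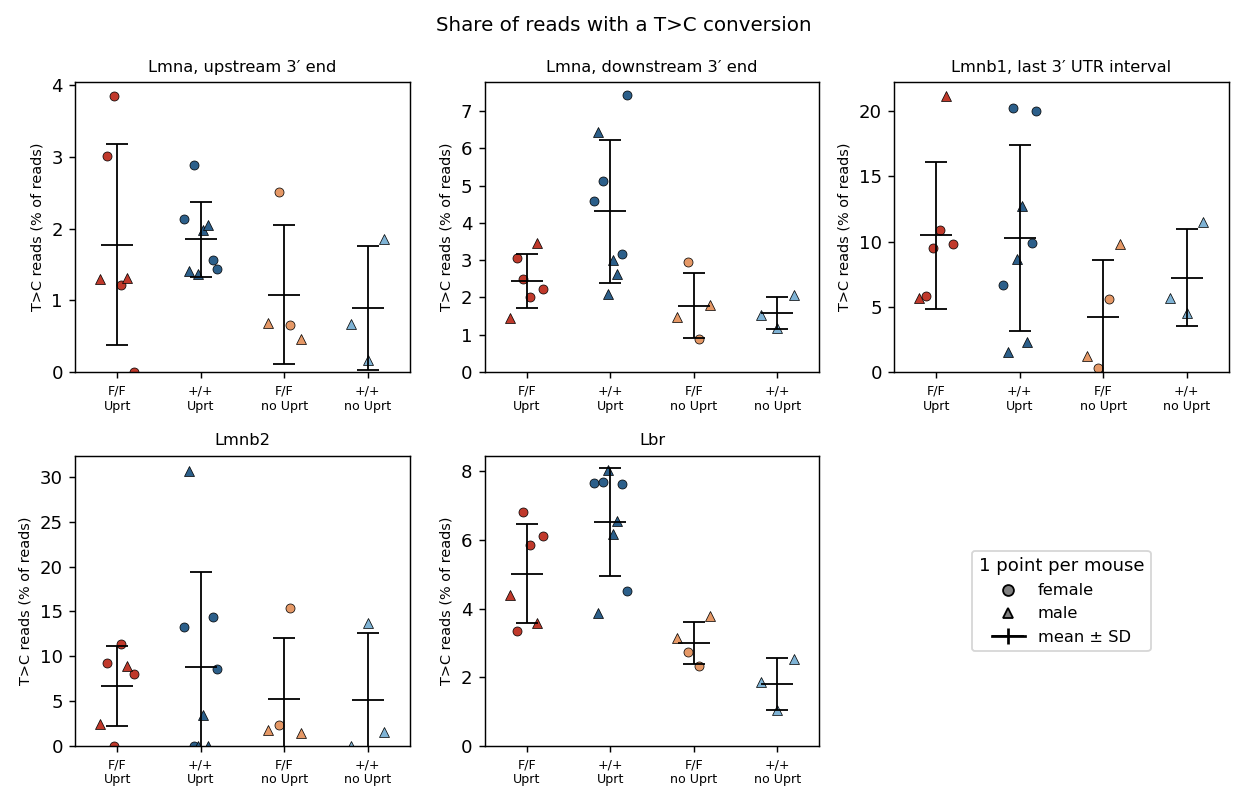
T>C reads as a percentage of an interval's reads, by group (1 point per mouse, circles females, triangles males, bars mean ± SD). Lbr and the downstream end of Lmna lie higher with Uprt than without in Lmna +/+ mice, without overlap, and overlap in Lmna F/F mice.

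Conversions were also counted per T position covered by reads. At Lbr 0.222% ± 0.0587 of covered T positions were converted in the 14 mice with Uprt and 0.0875% ± 0.0308 in the 7 mice without (SD; two-sided exact permutation p = 3.44e-05). At the downstream end of Lmna these were 0.203% ± 0.101 and 0.0991% ± 0.0376 (exact permutation p = 0.00246). At the upstream end they were 0.126% ± 0.0807 and 0.0572% ± 0.0512 (exact permutation p = 0.0377). By this count both ends of Lmna had an unadjusted p under 0.05. Lmnb1 had 0.380% ± 0.226 and 0.182% ± 0.128 (exact permutation p = 0.0375), and Lmnb2 had 0.239% ± 0.273 and 0.171% ± 0.217 (exact permutation p = 0.641). These p-values are not adjusted for the 6 intervals compared.

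The number of T>C reads was then compared between Lmna F/F and +/+ hearts with Uprt, and no member passed the test. These reads include background conversions, which were not subtracted. Pooled over mice, the share of T>C reads at the downstream end of Lmna was 2.46% with Uprt and 1.85% without in Lmna F/F, and in Lmna +/+ it was 4.29% with Uprt and 1.61% without. At the upstream end they were 1.92% with Uprt and 1.11% without in Lmna F/F, and 1.85% with Uprt and 0.915% without in Lmna +/+. In Lmna F/F the share without Uprt was thus more than the excess over it at both ends. In Lmna +/+ the excess was the larger at the downstream end and about equal to that share at the upstream end. These pooled shares leave out the spread between mice, which was wide at the upstream end. At the downstream end of Lmna there were 13 to 32 T>C reads per Lmna F/F mouse (median 22.0) and 15 to 71 per Lmna +/+ mouse (median 38.5), and the ranges overlapped. This gave a log2 fold change of -1.09 ± 0.32 (SE, edgeR unadjusted p = 0.00282, adjusted p = 0.240). The upstream end had 0 to 26 T>C reads in Lmna F/F mice and 13 to 43 in Lmna +/+ mice, with -1.30 ± 0.52 (SE, edgeR unadjusted p = 0.0227, adjusted p = 0.614). The last Lmnb1 interval had 9 to 33 against 2 to 19, with 0.72 ± 0.48 (SE, edgeR adjusted p = 0.842), and Lbr had 22 to 58 against 22 to 66, with -0.41 ± 0.29 (SE, edgeR adjusted p = 0.855). Of the 4 members tested 0 were called by edgeR or DESeq2, 2 had an unadjusted edgeR p under 0.05, and 0.49% of all 10405 intervals were called. Without Uprt 0 of 4 were called by either tool and 0 had an unadjusted p under 0.05, with 0.0506% of 7908 intervals called. The log2 fold changes there were -1.32 ± 1.25 at the upstream end of Lmna, 0.04 ± 0.81 at the downstream end, 0.44 ± 1.04 at Lmnb1 and 0.96 ± 0.58 at Lbr (SE, edgeR adjusted p = 0.728 to 0.997).

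The share of T>C reads, apart from the total, was also compared between Lmna genotypes with Uprt. At the downstream end of Lmna it averaged 2.45% ± 0.728 in Lmna F/F (SD, n = 6) and 4.31% ± 1.92 in Lmna +/+ (SD, n = 8), a log2 odds ratio of -0.84 ± 0.31 (SE, edgeR unadjusted p = 0.0139, adjusted p = 1.00). Per T position the means there were 0.141% ± 0.0390 in Lmna F/F and 0.250% ± 0.109 in Lmna +/+ (SD; exact permutation p = 0.0226, unadjusted for 6 intervals). The upstream end went the other way per T position, with 0.153% ± 0.115 in Lmna F/F and 0.106% ± 0.0400 in Lmna +/+ (SD; exact permutation p = 0.290). In T>C reads the log2 odds ratio was -0.15 ± 0.40 at the upstream end, at Lbr -0.46 ± 0.27 and at the last Lmnb1 interval 0.03 ± 0.46 (SE). None of the 4 members tested was called, 1 had an unadjusted edgeR p under 0.05, and 0.0384% of 10405 intervals were called. Taken from T>C reads alone, the share of Lmna reads on the downstream end was 69.3% ± 19.2 in Lmna F/F mice and 59.5% ± 13.3 in Lmna +/+ mice, all with Uprt (SD, n = 6 and 8; exact permutation p = 0.285). The difference of 9.85 points compares with 18.5 points in all reads. These shares rest on few T>C reads per mouse. Lmna F/F Uprt replicate 6 had a share of 100%, from 17 T>C reads at the downstream end and 0 at the upstream end.

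Outside the 4 genes, the intervals whose level most resembled that of the upstream Lmna end over the 21 libraries were sought among 9477 with a mean of at least 5 CPM, by Pearson r of log2(CPM + 0.5). The highest was chr4:155825098-155825644 (r = 0.810), which averaged 11.9 ± 1.08 CPM in the 6 Lmna F/F mice with Uprt and 14.4 ± 2.40 CPM in the 8 Lmna +/+ mice with Uprt (SD). The next were 2 intervals of 1 transcript on the chromosome of Lmna, chr3:63388533-63388614 (r = 0.807) and chr3:63388707-63388710 (r = 0.784). The first of these averaged 33.2 ± 8.73 CPM in Lmna F/F with Uprt and 155.6 ± 49.4 in Lmna +/+ with Uprt. Their r with the downstream Lmna end was 0.550, 0.444 and 0.395 in the same order. The intervals were picked for a high r with the upstream end, so a lower r with another interval follows from that choice. The 21 libraries hold 2 genotypes, which differ at the upstream end, so r includes that difference.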

How the data were processed

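The deposited values used are counts per 3′ UTR interval and library, per the file headers: reads, T>C reads (with a conversion), multimapped reads, covered T positions and conversions on them. Coordinates are those of mm39, the build in the submitters' processing notes. The aligner, annotation release and conversions needed per read: not given in the sources used here. Per the labels' protocols, 1.5 µg of RNA was alkylated in 12 mM iodoacetamide and stranded 3′ libraries were read over 100 bases.

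Of overlapping intervals on 1 strand the most read was kept, over the whole table. Tests of all reads used edgeR 4.0.16 under R 4.3.3 (filterByExpr, minimum count 10, TMM, quasi-likelihood F test, Benjamini-Hochberg over all intervals tested, threshold 0.05) in 1 fit of 21 libraries with a mean per group and a sex term. The same test was run on T>C reads in the 14 mice with Uprt and the 7 without, and T>C shares on a table of converted and unconverted reads with an effect for each library. SE is the log2 fold change over the square root of F. Per-mouse values of Lmna ends were compared by exact permutation tests (scipy 1.17.1). The main edgeR comparisons other than sex were first run on simulated counts, with results not given here. The DESeq2 fits and the sex estimate were not simulated.

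The members, the gene lists and the tests were chosen with earlier results of these data known. The sum of both Lmna ends, the sex estimate and their alternatives were added after the values were seen. Values are given by mouse for the best read interval of each gene and others averaging at least 1 CPM. Lists of nuclear envelope genes and cell type markers were not analysed here, since neither the files nor the supplied table (GRCm38.p6) pair the transcript IDs with names. No batch could be tested, since all libraries carry 1 pool label. Alternatives were DESeq2 1.42.0, its size factors or library size in place of TMM, no filter, no sex term, males alone, 2 groups alone, other ways to merge intervals, no multimapped reads, and each library left out in turn. The edgeR fits of males alone did not include Lmna F/F against +/+ without Uprt, for all reads or T>C reads.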

Additional observations from a re-analysis of the deposited data

Results flagged for a closer look

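The highest or lowest mouse was compared with the others in 36 sets of values, each from a group of 4 to 8 mice. Each set was a member's level, its T>C share or the downstream share of Lmna reads. The measure was the gap to that mouse's neighbour over the whole range. For independent values with a normal spread, chance alone exceeds its limit in about 1 of 20 sets. T>C shares cannot fall below 0 and can rest on few reads, so that rate need not hold for them. The limit was exceeded in 5 sets. In the level of Lbr, Lmna +/+ Uprt replicate 1 had 12.9 CPM, where the other mice of its group had 17.3 to 20.8 CPM. The other 4 sets are T>C shares, given with exact 95% binomial intervals for counting error. Lmna F/F no Uprt replicate 2 had 2.52% at the upstream end of Lmna (1.52% to 3.90%), where the others had 0.458% to 0.690%. Lmna F/F Uprt replicate 5 had 21.2% at the last Lmnb1 interval (15.0% to 28.4%), where the others had 5.70% to 10.9%. At Lmnb2, Lmna +/+ Uprt replicate 2 had 30.7% (21.9% to 40.7%), where the others had 0% to 14.4%, and Lmna F/F no Uprt replicate 3 had 15.4% (10.3% to 21.7%), where the others had 1.40% to 2.31%.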

How the results depend on the processing

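The upstream end of Lmna stayed lower in Lmna F/F with Uprt under all 31 alternatives, from -1.36 to -1.13 on the log2 scale. Without Uprt it ranged from -1.37 to -0.90 and lost its call in the 7 libraries alone (-1.03). The last Lmnb1 interval became called with Uprt by DESeq2 (0.61) and by library size (0.76). It spanned 0.49 to 0.69 with 1 library left out and 0.39 to 0.76 over all 31 alternatives. Without Uprt it lost its call in the 7 libraries alone (1.18) and without Lmna F/F no Uprt replicate 1 (0.96), spanned 0.96 to 1.31 with 1 library left out and had 1.33 by library size. The downstream end of Lmna without Uprt, not called, had 0.013 by library size and -0.50 to 0.0090 with 1 library left out. Library size moved the median of all intervals to 0.17 in both comparisons (1286 higher and 27 lower with Uprt, 1456 higher and 265 lower without). Uprt against none at the downstream end of Lmna was not called with no filter (0.81) or in males (0.81), and spanned 0.63 to 0.98 with 1 library left out. At the upstream end, not called (0.81), it spanned 0.48 to 1.29 with 1 library left out and was called in 3 of these fits. The difference in the downstream share was 17.6 to 19.6 points with 1 library left out, 19.3 in males (p = 0.133, exact permutation) and 9.85 in T>C reads. The summed Lmna level differed by -32.9 to -27.9 CPM with 1 library left out and -29.3 CPM in males. Without Uprt, males gave 16.1 points and -22.5 CPM. The cause of these changes was not tested.

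Over all intervals, 769 were called with Uprt. Alternatives gave 1591 (no filter), 1247 (DESeq2), 1313 (library size), 210 (males), 1174 (2 groups alone) and 508 to 925 (1 library left out). Without Uprt 1621 were called, 32 in the 7 libraries alone and 460 to 2356 with 1 left out. The difference between these effects had 0 calls, 329 with no filter, 8 by DESeq2, 1 in males and 0 to 4 with 1 left out. Sex had 72, 645 with no filter, 247 by DESeq2 and 53 to 261 with 1 left out. T>C reads with Uprt had 51, 171 with no filter, 96 by DESeq2, 7 in males and 37 to 59 with 1 left out, and without Uprt 4, then 246, 84, 7 with no sex term and 3 to 14. T>C shares had 7579 calls for Uprt (5004 in males), and 4 for Lmna, 46 with no filter and 2 to 5 with 1 left out.

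No paired analysis was possible because replicate numbers follow accession order and pair no mice. The exact permutation tests and the tests of T>C reads in mice without Uprt rest on 4 and 3 animals alone. For all reads, edgeR took the spread and the sex term for these mice from the fit of 21 libraries. Members with few T>C reads, such as Lmnb2, had wide intervals.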
